A study of Mus musculus with 4 samples.

Results

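The genes described here encode the enzymes that place methyl groups on histone lysines, called writers, and those that remove them, called erasers. They were taken by name, from probe sets annotated to 1 gene only whose symbol starts with Kdm, Kmt, Setd, Ehmt, Suv39 or Nsd, leaving out Kdm2b, Kdm5c, Kdm5d and Kdm6a. These prefixes took 106 of 45037 probe sets and 39 of 18193 genes. One of the 39, Nsdhl, is a sterol dehydrogenase of cholesterol synthesis that shares only letters with the Nsd writers. It was left out of all counts, with a log2 intensity of 9.36 and 9.57 on the Hi arrays and 9.03 and 9.36 on the Lo arrays. The remaining 105 probe sets stand for 38 genes, of which 19 are writers, 14 are erasers and 5 are other genes with a SET domain. Suv39h1 was not analysed here.

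The study compared LSK cells, the bone marrow cells without lineage markers that carry c-Kit and Sca1 and that include the blood stem cells, which were sorted into Hi and Lo by how much c-Myc-eGFP, c-Myc fused to a green fluorescent protein, they held. Each group has 2 Affymetrix mouse arrays, all from femoral marrow of mice whose strain is labelled WT B6/129, and since cells of both groups were sorted on the fusion protein, WT cannot mean that they lacked its gene. No treatment, age or further allele is given for either group. The labels do not say whether the arrays of a group came from different mice, so p-values measure only the spread between these samples, which may be technical. LSK cells are a mixture, and in such bulk samples fewer cells of a type and less RNA per cell cannot be told apart.

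Histone lysine methylation is read by its position. Methylation of lysine 4 of histone H3 (H3K4) goes with promoters and enhancers, that of H3K36 with the bodies of transcribed genes, that of H3K27 with Polycomb repression, and that of H3K9 and H4K20 with heterochromatin. The writers taken here carry a SET domain and take the methyl group from S-adenosylmethionine, while erasers are either flavin-dependent amine oxidases or jumonji dioxygenases that need oxygen and 2-oxoglutarate. In blood, Kmt2a is known for its fusions in leukaemia and for keeping Hox genes active in stem cells, and Kdm1a for its work with the repressors Gfi1 and Gfi1b.

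Promoter letters are shown for 4 members, the H3K9 writers Suv39h2 and Setdb2, which had higher values in Hi, and the H4K20 and H3K4 writers Kmt5b and Kmt2a, which had lower values; all 4 lay past an unadjusted p of 0.05 but not the adjusted one. Each runs 5′ to 3′ on the strand of the gene and ends 1 base before the annotated gene (RefSeq, GRCm38.p6). Capitals mark matches on either strand to the E-box CACGTG, known as a site of Myc, to 3 E2F-type strings (TTGGCGC, the like string TTCGCGC and the third string GGCGGGA) or to the CCAAT box.
Suv39h2, chr2:3474987-3475236, minus strand: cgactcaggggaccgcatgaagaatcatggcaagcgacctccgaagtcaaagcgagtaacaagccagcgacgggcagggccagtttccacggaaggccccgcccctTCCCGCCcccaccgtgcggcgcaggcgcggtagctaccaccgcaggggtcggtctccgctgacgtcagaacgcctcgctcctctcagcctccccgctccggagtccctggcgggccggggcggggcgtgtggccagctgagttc
Setdb2, chr14:59440881-59441130, minus strand: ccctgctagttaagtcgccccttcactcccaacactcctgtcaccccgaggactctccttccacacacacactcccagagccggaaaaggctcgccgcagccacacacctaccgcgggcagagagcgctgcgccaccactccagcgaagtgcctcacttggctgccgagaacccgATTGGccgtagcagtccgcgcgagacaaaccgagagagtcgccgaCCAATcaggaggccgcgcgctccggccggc
Kmt5b, chr19:3767171-3767361, plus strand: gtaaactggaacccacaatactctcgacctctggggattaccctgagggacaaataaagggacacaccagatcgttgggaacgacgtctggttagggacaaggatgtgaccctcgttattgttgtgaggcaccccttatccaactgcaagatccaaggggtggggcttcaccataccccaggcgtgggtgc
Kmt2a, chr9:44881353-44881539, minus strand: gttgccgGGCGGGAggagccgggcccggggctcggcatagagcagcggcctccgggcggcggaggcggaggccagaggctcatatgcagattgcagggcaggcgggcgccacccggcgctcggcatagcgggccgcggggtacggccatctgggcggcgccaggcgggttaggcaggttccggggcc
The Suv39h2 stretch holds 1 match, TCCCGCC (the reverse complement of the third string), and that of Kmt2a holds 1, GGCGGGA, while that of Setdb2 holds 2 matches to the CCAAT box and that of Kmt5b holds 0. Of the members, 27 matched a RefSeq promoter entry. In the 250 bases before a start, the E-box stood in 2 of these 27 genes (Ehmt2 and Kdm4c), 7.41% against 6.86% of all 27025 genes with an entry. An E2F-type string stood in 7 (Kdm1a, Kdm3a, Kmt2a, Kmt2c, Kmt5a, Kmt5c and Suv39h2), 25.9% against 13.8%, and the CCAAT box in 11, 40.7% against 37.5%. Genes with an E2F-type string thus include members higher in Hi and members lower in Hi. The E2F-type strings can overlap each other, and a match in a window is a description of letters only.

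No writer or eraser passed the test. A gene stands here for its brightest probe set, a difference is Hi minus Lo on the log2 scale with the moderated standard error (SE) of limma, and limma placed 0 of the 38 genes under an adjusted p of 0.05 in either direction. The background of such calls over all genes was 0.0% in each direction, and the smallest adjusted p of a member was 0.101. At an unadjusted p of 0.05, 4 members were higher (10.5%, against 9.25% of all genes) and 4 were lower (10.5%, against 11.0%), which is near the background. The ordinary test without moderation gave 2 and 3. The count of higher members was 1 without Hi replicate 1 and 2 without Hi replicate 2 or Lo replicate 2. The count of lower members was 2 without Hi replicate 1 and 8 without Lo replicate 2. By their brightest probe sets on all 4 arrays, the members passed that threshold about as often as other genes. With the probe sets of each gene averaged, their shares were larger than those of all genes, many of which were dim, as given below. Of the 38, 10 were above on both Hi arrays without overlap (26.3%, against 30.0% of all genes) and 17 below (44.7%, against 25.4%). Of the 13275 genes above the dim limit given below on at least 1 array, 3819 were above without overlap and 4179 (31.5%) below. The median difference was -0.16 over the 38 members, 0.09 over the writers and -0.34 over the erasers, against 0.03 over all genes and -0.02 over the 13275 genes above the dim limit on at least 1 array. That limit is the brightest probe set for a bacterial transcript that was not added, between 4.735 and 4.872. Of the members only Kdm4d, an eraser of H3K9, lay at or under it on every array.

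**Figure D1:**
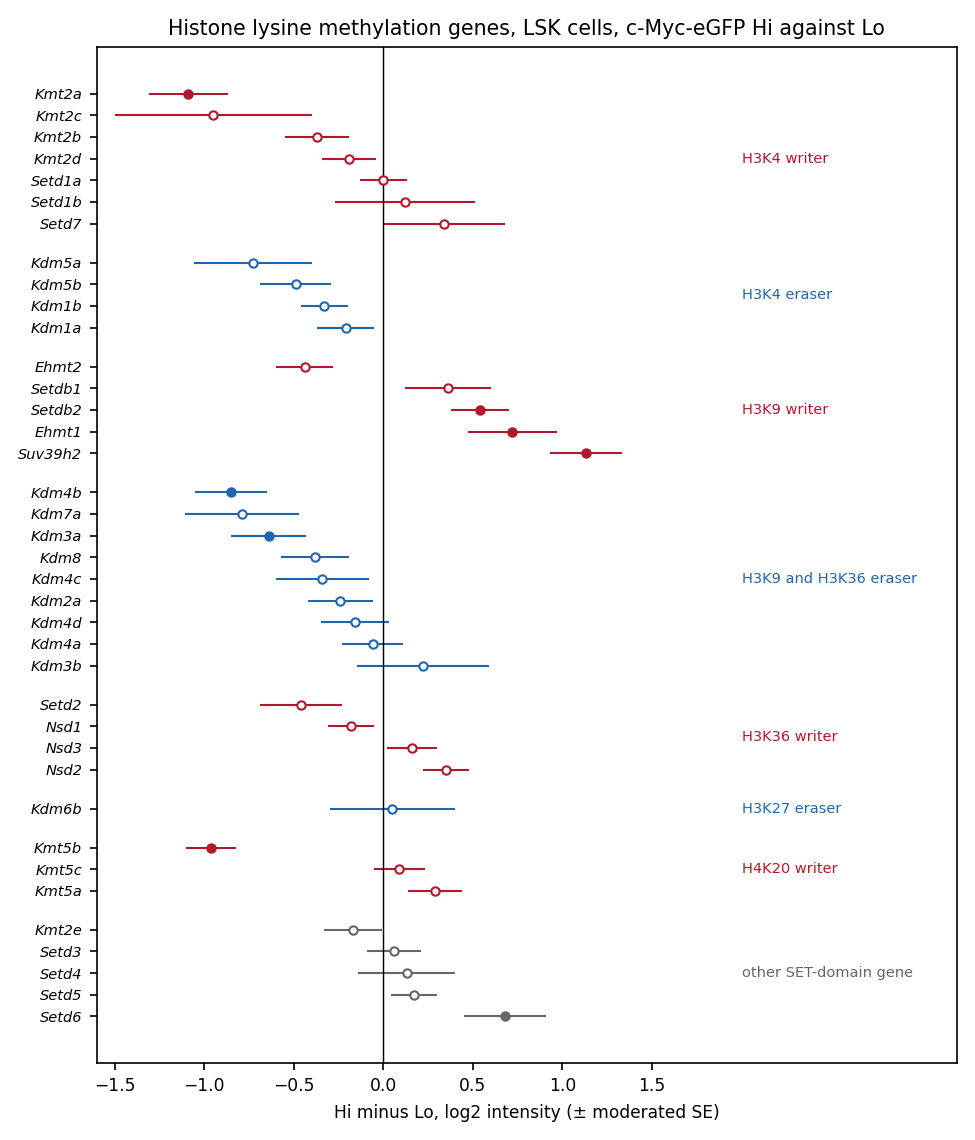
Difference of Hi minus Lo in log2 intensity for the 38 writers and erasers by role, each point with the moderated standard error as bar; writers are red, erasers blue, other SET-domain genes grey, and filled points have an unadjusted p under 0.05. Of the 14 erasers 12 lie left of 0, while the H3K9 writers other than Ehmt2 lie right of it.

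The H3K9 writers were the role group with the largest median difference, 0.54 over 5 genes. Suv39h2, which trimethylates H3K9 at heterochromatin around centromeres (chromosome 2, 3455815 to 3474986), had log2 intensities of 10.05 and 10.15 in Hi and 9.18 and 8.75 in Lo. Its Hi values were apart from and above its Lo values, with a difference of 1.13 ± 0.20 (SE), 2.19-fold, and an adjusted p of 0.124 by limma. Its other probe sets differed by 0.63 ± 0.38 (SE) with overlap and by 2.41 ± 0.58 without, so all 3 had a higher mean in Hi. Ehmt1, a subunit of the dimethylating Ehmt1-Ehmt2 enzyme (chromosome 2, 24790769 to 24919643), had 10.06 and 9.70 in Hi and 9.41 and 8.91 in Lo. The groups did not overlap, and the difference was 0.72 ± 0.25 (SE), 1.64-fold, with an adjusted p of 0.272 by limma. Setdb2 (chromosome 14, 59402009 to 59440880) had 8.47 and 8.74 in Hi and 8.01 and 8.12 in Lo, again without overlap, with a difference of 0.54 ± 0.16 (SE) and an adjusted p of 0.226 by limma. Setdb1, which Trim28 brings to retroelements, had 9.11 and 9.65 in Hi and 8.94 and 9.09 in Lo, and a further probe set differed by 1.03. These 4 genes were above 0 in all 13 alternative settings. Since their groups did not overlap, only the shift to 1 median, cyclic loess and the mean of several probe sets could have turned a sign. Ehmt2, the partner of Ehmt1, stood the other way, at 11.13 and 11.04 in Hi and 11.40 and 11.66 in Lo, with a difference of -0.44 ± 0.16 (SE). Within an array, the log2 ratio of Ehmt1 to Ehmt2 was higher by 1.16 in Hi, with no overlap between the groups. An exact two-sided permutation test of that ratio gave p = 0.333, the smallest p that 2 arrays against 2 allow. This pair and that of Kmt5a and Kmt5b, below, were chosen after their values were seen.

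The erasers lay mostly below 0. Of the 14, 12 (85.7%) had a negative difference, against 46.4% of all genes and 52.1% of those above the dim limit on at least 1 array. Without overlap, 9 (64.3%) were lower on the Hi arrays, against 25.4% and 31.5%, and 0 were higher. Without Lo replicate 2 all 14 were below 0, and without Lo replicate 1 or Hi replicate 2 there were 11. With the arrays shifted to 1 median there were 11, after cyclic loess 13, and with dim probe sets left out 11 of 13. The 14 genes share their 4 arrays, so these counts describe the family in these samples and carry no test.

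Among the H3K9 and H3K36 erasers, Kdm4b (chromosome 17, 56325970 to 56403774), which removes methyl groups from H3K9 and H3K36, had 7.66 and 8.06 in Hi and 8.76 and 8.67 in Lo. Every Hi value lay below every Lo value, and the difference was -0.85 ± 0.20 (SE), 1.80-fold lower in Hi, with an adjusted p of 0.162 by limma. Kdm3a, an H3K9 eraser known as a hypoxia-responsive gene (chromosome 6, 71588970 to 71632990), had 9.93 and 9.87 in Hi and 10.30 and 10.78 in Lo. Its difference was -0.64 ± 0.21 (SE), with no overlap and an adjusted p of 0.254 by limma. Kdm4b and Kdm3a have 1 probe set each, so no further probe set bears on them. Kdm7a, an eraser of H3K9 and H3K27, differed by -0.79 ± 0.32 (SE) on its brightest probe set, but its 4 probe sets above the dim limit in both groups ran from -1.49 to 0.52. On their brightest probe sets the paralogues of Kdm4b and Kdm3a had groups that overlapped. Kdm4a differed by -0.06 ± 0.17 (SE), Kdm4c by -0.34 ± 0.26 and Kdm3b by 0.22 ± 0.37. A further Kdm3b probe set differed by 0.75 ± 0.29 (SE) without overlap, and the average of its probe sets gave 0.48. The H3K36 eraser Kdm2a differed by -0.24 ± 0.18 (SE), barely without overlap, at 10.75 and 10.89 in Hi and 11.21 and 10.90 in Lo. Its 3 probe sets above the dim limit in both groups ran from -0.51 to 0.26. Kdm8, a jumonji gene whose histone target is disputed, had -0.38 ± 0.19. Jmjd1c, a jumonji relative of Kdm3a outside the named members, had -0.65 ± 0.16 (SE).

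The 4 H3K4 erasers all had lower values on both Hi arrays than on both Lo arrays, as did 25.4% of all genes and 31.5% of those above the dim limit on at least 1 array, and 0 of the 4 had an unadjusted p under 0.05. Kdm1b differed by -0.33 ± 0.13 (SE). Kdm5a differed by -0.73 ± 0.33 (SE), with the Lo arrays themselves far apart at 10.89 and 10.03 and both Hi arrays lower, at 9.76 and 9.70. Its 4 probe sets above the dim limit ran from -0.73 to 0.02, and the average of all its probe sets gave -0.28. Kdm5b, a jumonji eraser of trimethylated H3K4, had 10.24 and 10.14 in Hi and 10.89 and 10.48 in Lo, a difference of -0.49 ± 0.20 (SE) with an adjusted p of 0.315 by limma. Its probe sets ran from -1.95 to 0.21, and their mean gave -0.79. Kdm1a, the amine oxidase that works with CoREST, had 12.03 and 12.21 in Hi and 12.25 and 12.42 in Lo, so its groups were separated by less than the spread within each. All 4 stayed below 0 in the 13 alternative settings, most of which cannot turn the sign of a gene whose groups do not overlap. Kdm6b, grouped by itself as an eraser of H3K27, had 13.07 and 12.16 in Hi and 12.62 and 12.52 in Lo, with groups that overlapped. Its brightest probe set is of a kind (suffix x) whose probes can also match other transcripts, and the sign of its difference of 0.05 ± 0.35 (SE) turned in 4 of 13 alternative settings, among them the mean of its probe sets at -0.15.

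Of the 7 H3K4 writers 1, Kmt2a, had an unadjusted p under 0.05. Kmt2a (chromosome 9, 44803355 to 44881352) had 10.63 and 10.55 in Hi and 11.92 and 11.44 in Lo. The groups were apart, with a difference of -1.09 ± 0.22 (SE), 2.13-fold lower in Hi, and an adjusted p of 0.138 by limma. A further Kmt2a probe set differed by -0.56 with overlap. The relatives Kmt2b, Kmt2c and Kmt2d, catalytic cores of the same kind of complex, differed by -0.37 ± 0.18 (SE), -0.95 ± 0.55 and -0.19 ± 0.15. Kmt2e, which carries the family name but has no established histone methylating activity, differed by -0.17 ± 0.16 (SE). All 5 Kmt2 genes were below 0, also under each scaling, except that Kmt2d stood at 0.06 when its probe sets were averaged. The value of the brightest Kmt2c probe set rests on Lo replicate 1, which had 12.47 against 11.12 on the other Lo array. Its further probe sets differed by -0.91 and -0.50 without overlap and by 0.60 with overlap. Setd1a, the core of another H3K4 methylating complex, had 11.28 and 11.26 in Hi and 11.27 and 11.26 in Lo, a difference of 0.00 ± 0.13 (SE). A dimmer Setd1a probe set exceeded the dim limit on Hi replicate 1 alone, at 5.21, so its difference is not given. Setd1b differed by 0.12 ± 0.39 (SE) and Setd7, which monomethylates H3K4 and also other proteins, by 0.34 ± 0.34.

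**Figure D2:**
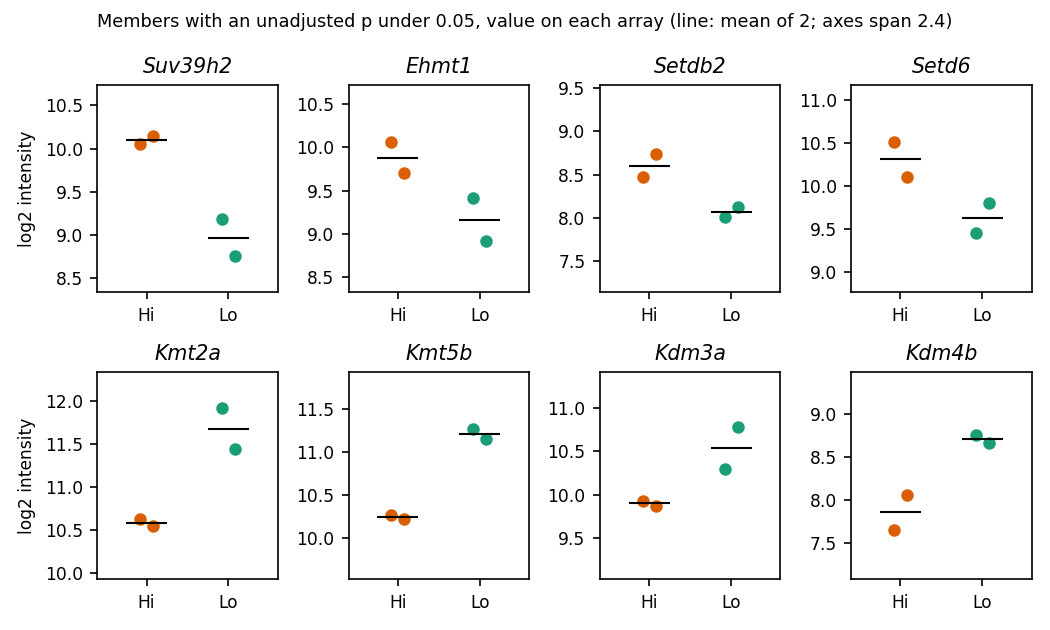
Log2 intensity on each of the 2 Hi and 2 Lo arrays for the 8 members with an unadjusted p under 0.05, with the mean of each pair as a line. Every axis has the same length in log2 units but is centred on the mean of its own gene, so heights cannot be compared between panels. In the upper row both Hi arrays lie above both Lo arrays (Suv39h2 at 10.05 and 10.15 against 9.18 and 8.75), and in the lower row below them (Kmt5b at 10.27 and 10.22 against 11.26 and 11.15).

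The H4K20 writers act in sequence, with Kmt5a placing the first methyl group during the cell cycle and Kmt5b and Kmt5c adding further ones. Kmt5b (chromosome 19, 3767362 to 3818303) had 10.27 and 10.22 in Hi and 11.26 and 11.15 in Lo. It had the smallest adjusted p of all members, 0.101 by limma, with a difference of -0.96 ± 0.14 (SE), 1.95-fold lower in Hi. All 5 of its probe sets had a negative difference, from -2.78 ± 1.04 (SE) to -0.20 ± 0.41, and those at -0.42 and -0.20 had groups that overlapped. Over the 13 alternative settings the difference of Kmt5b ran from -1.04 to -0.87. Kmt5a had 12.48 and 12.57 in Hi and 12.14 and 12.32 in Lo, a difference of 0.29 ± 0.15 (SE) without overlap. Another bright Kmt5a probe set differed by 0.54. Kmt5c, which acts like Kmt5b, differed by 0.09 ± 0.14 (SE). The log2 ratio of Kmt5a to Kmt5b within an array was higher by 1.26 in Hi, without overlap, and the exact two-sided permutation test again gave its smallest p, 0.333.

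The H3K36 writers showed no common direction. Nsd2, which dimethylates H3K36, had 10.46 and 10.48 in Hi and 10.10 and 10.13 in Lo. Its arrays were close within each group and apart between them, with a difference of 0.35 ± 0.13 (SE) and an adjusted p of 0.285 by limma. Its 4 probe sets above the dim limit ran from 0.02 to 0.95. Setd2, which trimethylates H3K36 behind RNA polymerase II, had 9.44 and 9.95 in Hi and 10.05 and 10.26 in Lo, a difference of -0.46 ± 0.23 (SE). Nsd1 and Nsd3 differed by -0.18 ± 0.13 (SE) and 0.16 ± 0.14, and the 5 Nsd3 probe sets above the dim limit in both groups ran from -0.34 to 0.86. A further Nsd3 probe set exceeded the limit in Lo, at 5.84 and 6.46, and on neither Hi array. Among the other SET-domain genes, Setd6, which methylates the NF-kappaB subunit RelA (chromosome 8, 95715634 to 95721507), had 10.51 and 10.10 in Hi and 9.45 and 9.80 in Lo. Its groups did not overlap, and its difference was 0.68 ± 0.23 (SE), with an adjusted p of 0.259 by limma and a further probe set differed by 0.55. Setd3, an actin histidine methyltransferase, Setd4 and Setd5 differed by 0.06, 0.13 and 0.17. When their probe sets were averaged these became 0.36, 0.41 and 0.69, and Setd5, with probe sets from 0.17 to 1.33, then had an unadjusted p under 0.05.

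How far a member's value depends on the probe set differs between genes. Of the 23 members with more than 1 probe set above the dim limit in both groups, 13 had all of these on 1 side of 0. These were 9 above, among them Suv39h2, Setdb1, Nsd2, Kmt5a and Setd6, and 4 below, Kmt2a, Kmt5b, Kdm1a and Ehmt2. In the other 10 at least 1 probe set pointed the other way. Over all 105 probe sets 15 were higher at an unadjusted p of 0.05 (14.3%, against 9.05% of all probe sets) and 12 lower (11.4%, against 8.91%). When the probe sets of each gene were averaged and the genes fitted anew, 9 members were higher at an unadjusted p of 0.05 (23.7%, against 11.3% of all genes) and 7 lower (18.4%, against 11.0%). Both backgrounds include dim features. By their brightest probe sets 4918 of 18193 genes were dim on every array, against 1 of 38 members. Unadjusted shares over genes above the dim limit were not computed for the averaged fit, so these excesses are not read as a trait of the members. Among the 9 are Setd1a, through its dimmer probe set, and Setd7, at 0.50 in that fit. The brightest Setd7 probe set had groups that overlapped, and its other one did not exceed the dim limit on any array. At an adjusted p of 0.05 that fit called 0 members in either direction, against 1.39% of all genes higher and 1.52% lower, and its smallest adjusted p among the members was 0.0635, for Kmt5b. Limma over 1 probe set per gene also called 0, against 1.04% and 1.18%, with a smallest adjusted p of 0.0551, again for Kmt5b.

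**Figure D3:**
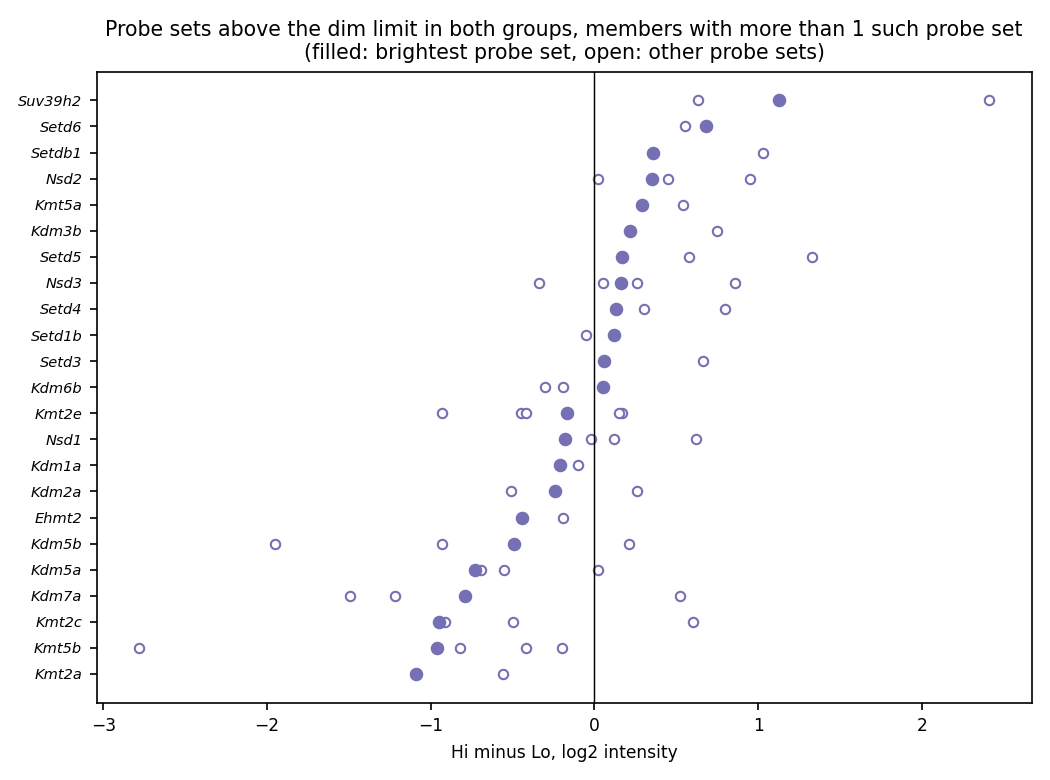
Difference of Hi minus Lo in log2 intensity for every probe set that lay above the dim limit on at least 1 array of each group, for the 23 members with more than 1; filled points are the brightest probe set and open points the others. All 5 Kmt5b points lie left of 0 and all 3 Suv39h2 points right of it, while Nsd3 and Kdm7a have points on both sides.

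The partners of these enzymes also had values on both sides of 0, with 0 genes of each list under an adjusted p of 0.05 by limma. At an unadjusted p of 0.05, 2 of 16 other lysine methyltransferases stood higher (12.5%, against 9.25% of all genes) and 4 lower (25%, against 11.0%), and their median difference was 0.12. The same background holds for the other partner lists. Ezh2, the H3K27 writer of Polycomb, had 12.00 and 12.03 in Hi and 11.09 and 11.19 in Lo, and its relative Ezh1 had 8.42 and 8.33 in Hi and 9.29 and 9.67 in Lo, so these paralogues stood in opposite directions. Prdm16, a stem cell transcription factor gene, differed by -1.14 ± 0.19 (SE). Averaged over its probe sets, Ezh1 stood at -0.27. Of 8 other jumonji genes 1 was higher, Riox1 at 0.84 ± 0.16 (SE), a nucleolar hydroxylase gene, and 1 lower, Jmjd1c, with a median of -0.11. Of 15 subunits of the H3K4 methylating complexes 2 were higher, Paxip1 at 0.78 ± 0.20 (SE) and Dpy30 at 0.46 ± 0.16, and 0 lower, and their median was 0.07, while the Kmt2 genes themselves had a median of -0.37. Of 12 partners of Kdm1a 0 were higher and 1 lower, Gse1 at -0.53 ± 0.15 (SE), with a median of -0.16. Rcor3 followed at -0.39 ± 0.17, and with the mean of their probe sets Gse1 had -0.12 and Rcor3 -0.05.

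By the same measure 4 of 16 partners and readers of H3K9 methylation stood higher (25%, against 9.25% of all genes) and 2 lower (12.5%, against 11.0%), with a median of 0.18. Cbx3 and Cbx5, which encode heterochromatin proteins that bind methylated H3K9, differed by 0.79 ± 0.14 (SE) and 0.40 ± 0.13, and Uhrf1, which reads H3K9 methylation during replication, by 0.87 ± 0.16. Atf7ip, which stabilises Setdb1 protein, stood at -0.76 ± 0.13 (SE) and Mphosph8, a reader in the HUSH complex, at -0.55 ± 0.15. With the mean of their probe sets Atf7ip had -0.41, Mphosph8 -0.24 and Uhrf1 1.82, where the adjusted p of Uhrf1 by limma was 0.0449. Of 7 genes that supply S-adenosylmethionine or 2-oxoglutarate 2 were higher (28.6%) and 1 lower (14.3%), with a median of 0.13. Ahcy, which clears the product of methylation, differed by 0.52 ± 0.13 (SE) and Idh2, which makes 2-oxoglutarate in mitochondria, by 0.46 ± 0.13, though by 0.19 with the mean of its probe sets. D2hgdh, which removes an inhibitor of jumonji enzymes, stood at -0.65 ± 0.19 (SE).

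Other gene lists moved with the same groups. At an unadjusted p of 0.05, 20 of 23 genes of S phase and mitosis stood higher (87.0%, against 9.25% of all genes) and 0 lower (against 11.0%), with a median difference of 1.01. Their list mean stood at 11.90 and 11.89 on the Hi arrays, above the 10.81 and 10.82 of the Lo arrays. Of 9 erythroid genes 7 were higher (77.8%, against the same background), with a list mean of 9.25 and 9.12 in Hi and 7.35 and 7.54 in Lo. Of 9 genes of long-term stem cells 9 were lower (100%, against 11.0% of all genes), with a list mean of 8.36 and 8.0 in Hi and 10.40 and 10.41 in Lo. Mecom, in this list, is also counted among the other lysine methyltransferases above. Kit, Cd34 and Flt3, which define or subdivide LSK cells, lay between 11.39 and 12.92 on all arrays. Ptprc, the fourth gene of that list and a marker of all white blood cells, had 11.10 and 11.29 in Hi and 11.71 and 11.83 in Lo, a difference of -0.58 ± 0.15 (SE), the only one of the 4 with an unadjusted p under 0.05. Of the markers of mature cells, Cd3e lay between 5.24 and 5.71 and Itgam between 4.79 and 5.73, while Cd79b, at 11.02 to 11.48, and the neutrophil genes S100a8 and S100a9, at 12.52 to 13.64, were bright on all 4 arrays. The list means were 6.07 to 6.75 over 4 mature T cell genes, 8.87 to 9.31 over 3 mature B cell genes and 8.92 to 9.75 over 5 granulocyte and macrophage genes, with 1 of these 12 genes, Cd8a, past an unadjusted p of 0.05 and lower in Hi. Alas2, a defining gene of maturing red cells, did not exceed the dim limit on any array. For Gapdh, one of the controls of RNA integrity, the 3′ probe set exceeded the 5′ probe set by 0.63 and 0.65 in Hi and 0.74 and 0.78 in Lo, on the log2 scale. For Actb the excess came to 0.60 and 0.55 on the Hi arrays and 0.84 and 0.57 on the Lo arrays, with groups that overlapped. The part of cell cycle, cell type and RNA quality in the values of the writers and erasers was not tested. The Lo arrays also differed more from each other: 8 of 38 members differed by over 0.5 between them, 21.1% against 26.8% of the genes above the dim limit, and 7 of the 8 were higher on Lo replicate 1. Of those 13275 genes, 1689 were higher by over 0.5 on Lo replicate 1 and 1874 on Lo replicate 2. Between the Hi arrays 4 members differed by over 0.5, 10.5% against 13.6%.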

How the data were processed

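Transcript levels of the Hi and Lo groups were measured on Affymetrix mouse arrays after amplification of 5 ng of total RNA, per the labels' protocols. The authors deposited a linear intensity for each probe set, made with RMA per the submitters' processing notes; its version was not given in the sources used here. RMA sets the arrays to 1 common distribution, and shifts in RNA content of a whole cell are lost by it. Intensities were log2-transformed with no offset. Of 45101 probe sets 64 controls were left out; 34945 had 1 symbol, 932 several and 9160 none, and symbols were updated through Entrez identifiers (GRCm38.p6, 34741 matched). Hi minus Lo was fitted with limma 3.58.1 in R 4.3.3 (lmFit, eBayes, two-sided, 2 residual and 1.976 prior degrees of freedom) over 45037 probe sets, with Benjamini-Hochberg adjustment, and the steps were tested on simulated data. The number of arrays, 2 a group, limits the precision. All 4 array values were to be given for members with an unadjusted p under 0.05 and separate groups and for 10 preset members, of which Suv39h1 was not analysed; for each partner list the 2 genes with the smallest p were named, and other genes were chosen after their values were seen. The members and lists were chosen with earlier results of these data known. The alternatives were a replicate block, each array left out, other scalings, filters and priors, and other ways to join probe sets; the fit over 1 probe set per gene was added after seeing the data.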

Additional observations from a re-analysis of the deposited data

How the results depend on the processing

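Limma called 0 members at an adjusted p of 0.05 under each of the 13 alternatives, where the smallest adjusted p of a member ran from 0.0551 to 0.439. The number higher at an unadjusted p of 0.05, 4, was 2 with dim probe sets left out, 2 in the ordinary test without moderation and 9 when the probe sets of a gene were averaged; the number lower, 4, was 7 with that average. Leaving out single arrays, these numbers ran from 1 to 4 and from 2 to 8, and the median difference of -0.16 from -0.24 to -0.05. Kdm6b turned its sign, to -0.01 after cyclic loess, to -0.15 with the mean of its probe sets and, leaving out single arrays, within -0.41 to 0.51. The 15 other members picked by the rule for named genes kept theirs, but for most alternatives this was fixed in advance. Their groups did not overlap, so only the shift to 1 median, cyclic loess and the mean of several probe sets could have turned a sign. With the replicate number as a block, 3 members stood higher and 3 lower by the unadjusted p and 0 by an adjusted p of 0.05 (smallest 0.195). Deviations of same-numbered arrays correlated at 0.072 over probe sets, so the numbers were not taken to pair the samples. With 2 arrays a group, differences of about 2-fold, as of Suv39h2 (2.19) and Kmt2a (2.13), did not pass after adjustment. Neither did larger ones in the main fit, where the smallest adjusted p over all 45037 probe sets was 0.0839 by limma.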
